A study of Mus musculus with 13 samples.

Results

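The mitosis and spindle genes are 44 genes, listed by symbol, whose products start mitosis, build the spindle, hold and part the chromosomes or divide the cytoplasm. Of these, 43 had a probe set naming that gene alone on each of 2 Affymetrix array types, among 18194 genes so named on Mouse Genome 430 2.0 arrays and 19938 on Gene 1.0 ST arrays. Ccnb1 was not analysed here. For a gene with several probe sets, that with the highest mean on its array type was taken. All 43 lay above the level below which genes were not tested, the lowest 40% by mean, which left 10916 genes tested on 430 2.0 and 11963 on Gene 1.0 ST.

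The cells were B3, a single mouse pre-B cell line, which was infected with MSCV retroviral vectors that also express GFP from an internal ribosome entry site. For the 430 2.0 arrays, 2 samples of cells given HA-tagged wild-type Ikaros and 2 of cells given the HA-tagged mutant 159A, which the labels describe as unable to bind DNA, were taken 48 h after infection. For the Gene 1.0 ST arrays, all cells were exposed to 4-hydroxytamoxifen, the drug that switches on a protein joined to ERt2, a hormone-binding domain from the estrogen receptor. Cells with Ikaros-ERt2 were sampled after 2 h (3 samples) and 6 h (3 samples), and cells with an ERt2 vector without Ikaros after 6 h (3 samples). The series has neither an untreated Ikaros-ERt2 group nor a vector group at 2 h, so at 2 h the construct and the time of exposure cannot be told apart. At 2 h and at 6 h, a response to the drug and a difference present before it cannot be told apart either. Below, rose and fell mean higher or lower than in the control group. At 48 h the control is the mutant protein and not an empty vector. The titles number the samples of a group as biological replicates. Whether these were separate cultures is not in the labels, so the p-values cover only the spread among these arrays, whose small number limits precision.

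Ikaros is the product of Ikzf1, a DNA-binding protein with zinc fingers that is known to restrain the proliferation of pre-B cells. Most mitotic genes are transcribed late in the cell cycle, in G2 phase and mitosis. Their promoters are known to be held back by the DREAM complex through an element called the cell cycle genes homology region, or CHR, and to be activated by B-Myb, FoxM1 and NF-Y. The amount of their RNA in a culture therefore follows, as a rule, how many of its cells are near division.

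Markers of the B lineage lay above the level for testing in every group, for 8 of 8 measured genes on 430 2.0 and 9 of 9 on Gene 1.0 ST. On 430 2.0, the medians of the T cell, myeloid, erythroid, NK cell and fibroblast lists were at most 2.22 in both groups, against a lowest value of 2.19. There, 2 of 6 T cell, 2 of 6 myeloid and 1 of 3 erythroid genes lay above the level for testing in each group. No NK cell or fibroblast gene did, and the highest mean was 5.07, of Klf1 in Ikaros cells. On Gene 1.0 ST the medians of these lists were 3.79 to 5.88 in the 3 groups. Above the level for testing were 3 of 5 fibroblast, 2 or 3 of 6 T cell and 1 or 2 of 2 erythroid genes in each group. No myeloid or NK cell gene was. Pearson r over probe sets was 0.988 to 0.995 for arrays of 1 group on 430 2.0, and 0.965 to 0.972 for arrays of different groups. The Gene 1.0 ST arrays were more alike, at 0.995 to 0.998 inside a group and 0.994 to 0.997 across groups. Ikzf1 lay between 13.22 and 13.39 log2 units on the 6 Ikaros-ERt2 arrays, against 9.16, 9.25 and 9.39 in vector-ERt2 cells. The title of vector-ERt2 replicate 1 names the vector while another of its labels names inducible Ikaros, and its Ikzf1 level lay with those of the other vector arrays. At 48 h both groups carry an Ikaros transgene, and Ikzf1 averaged 12.04 ± 0.06 in Ikaros cells and 11.71 ± 0.15 in 159A cells (SD, n = 2 each).

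The genes share letters in their promoters that the choice of members did not use. RefSeq (build GRCm38.p6) gave a window of 250 bases before to 50 bases after the start for 35 of the 43 genes, and for 27025 genes in all. The letters TTTGAA or TTCGAA, the core of the CHR, stood on either strand in 27 of the 35 windows (77.1%), against 19.4% of all windows. Counting only the 100 bases from 50 before to 50 after the start, 26 of 35 held them (74.3%), against 5.29% of all windows. The letters CCAAT, the box that NF-Y binds, stood in 26 of 35 (74.3%), against 37.9% of all windows. Both elements stood in 24 of 35 (68.6%), against 7.70%. TTTGAA alone was in 71.4% of the genes' windows against 18.1%, and TTCGAA alone in 11.4% against 1.57%. TTTCGCG, a form of the E2F site, was in 5.71% against 0.844%. TGGGAA, the core of sites that Ikaros binds, was in 20.0% of the genes' windows, against 25.5% of all windows. Each was searched on both strands. A match describes letters, and not binding.

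**Figure D1:**
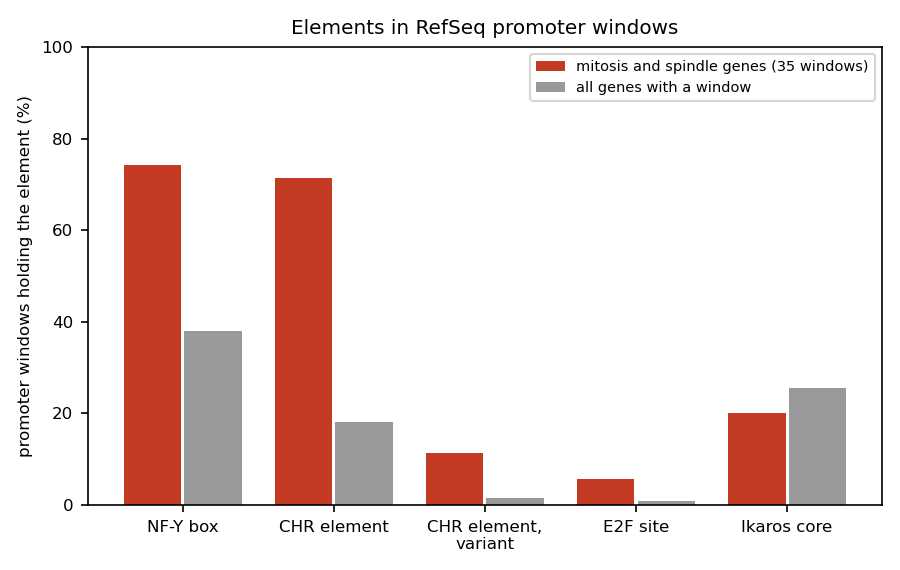
Share of RefSeq promoter windows (percent, vertical axis) that hold each element on either strand, for the 35 mitosis and spindle genes with a window (red, left bar) and all 27025 genes with one (grey, right bar). The NF-Y box is CCAAT, the CHR element TTTGAA, its variant TTCGAA, the E2F site TTTCGCG and the Ikaros core TGGGAA. The CHR element stands in 71.4% of the genes' windows and 18.1% of all windows, and the Ikaros core in 20.0% and 25.5%.

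Shown next are 4 genes with CCAAT and TTTGAA within the 250 bases before the start. At most 4 were to be shown, so 4 is not a count of all genes that held both. Those shown each passed a test or were among the 3 largest changes of a comparison. Their sequences are printed from 5′ to 3′ on the gene's strand, with both elements, read on either strand, in capitals, to show how close to the start and to each other the elements lie.
Ect2, chr3:27153879-27154128, minus strand: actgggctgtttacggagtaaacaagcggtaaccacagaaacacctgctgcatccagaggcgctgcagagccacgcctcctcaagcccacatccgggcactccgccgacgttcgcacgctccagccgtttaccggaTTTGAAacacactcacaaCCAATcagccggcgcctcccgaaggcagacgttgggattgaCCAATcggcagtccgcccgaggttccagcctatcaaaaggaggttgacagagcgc
Cdk1, chr10:69352913-69353162, minus strand: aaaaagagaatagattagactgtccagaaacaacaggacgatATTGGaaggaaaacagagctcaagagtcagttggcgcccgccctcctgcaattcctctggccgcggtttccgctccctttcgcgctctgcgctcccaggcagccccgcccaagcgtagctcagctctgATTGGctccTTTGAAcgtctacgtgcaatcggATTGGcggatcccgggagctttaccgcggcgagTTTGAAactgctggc
Bub3, chr7:131560120-131560369, plus strand: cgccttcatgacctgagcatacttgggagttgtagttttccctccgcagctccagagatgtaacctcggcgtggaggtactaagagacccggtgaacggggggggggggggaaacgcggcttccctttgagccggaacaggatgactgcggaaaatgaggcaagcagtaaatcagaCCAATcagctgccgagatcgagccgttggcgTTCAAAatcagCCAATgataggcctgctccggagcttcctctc
Espl1, chr15:102296043-102296292, plus strand: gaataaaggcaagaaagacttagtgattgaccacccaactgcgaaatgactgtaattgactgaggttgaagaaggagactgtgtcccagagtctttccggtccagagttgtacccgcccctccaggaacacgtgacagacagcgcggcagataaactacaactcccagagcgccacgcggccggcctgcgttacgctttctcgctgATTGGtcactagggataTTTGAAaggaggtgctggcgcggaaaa
In Ect2, the guanine nucleotide exchange factor that activates RhoA in cytokinesis, the CHR letters begin at position -114, counted from the start, and the CCAAT letters at -96 and -55. In Cdk1, the kinase that drives entry into mitosis, the CHR letters begin at -71 and -15. In Bub3, a protein of the spindle checkpoint, they begin at -43, and in Espl1, which encodes separase, at -27. Their differences were unlike: the log2 differences between Ikaros and 159A cells at 48 h were -0.81 for Ect2, -2.31 for Cdk1, -0.14 for Bub3 and -2.31 for Espl1. Over the 35 genes with a window, the median difference at 48 h was -1.88 for the 27 with the CHR letters and -1.86 for the 8 without.

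At 48 h, the mitosis and spindle genes were lower in Ikaros cells than in 159A cells across the list. All 43 had a negative difference, with a median of -1.87 log2 units, against a median of 0.00 over all 10916 genes tested. The arrays did not overlap for 41 of the 43, each with both Ikaros arrays below both 159A arrays, against 30.0% of all genes tested. At least 2-fold lower were 38 of 43, against 14.5% of all genes. With 2 arrays a group, 8 of 43 (18.6%) passed limma's test at an adjusted p under 0.05 as lower, against 8.47% of all genes. None passed as higher, and 25 of 43 (58.1%) had an unadjusted p under 0.05, against 33.7% of all genes. In RNA from whole cultures, fewer cells near division and less of each RNA per cell cannot be told apart. Mki67, the usual marker of cycling cells, read 7.72 and 10.17 in Ikaros cells, against 11.79 and 11.98 in 159A cells. That is a log2 difference of -2.94 ± 1.04 (SE, adjusted p = 0.189 in limma), and its part in these results was not tested.

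**Figure D2:**
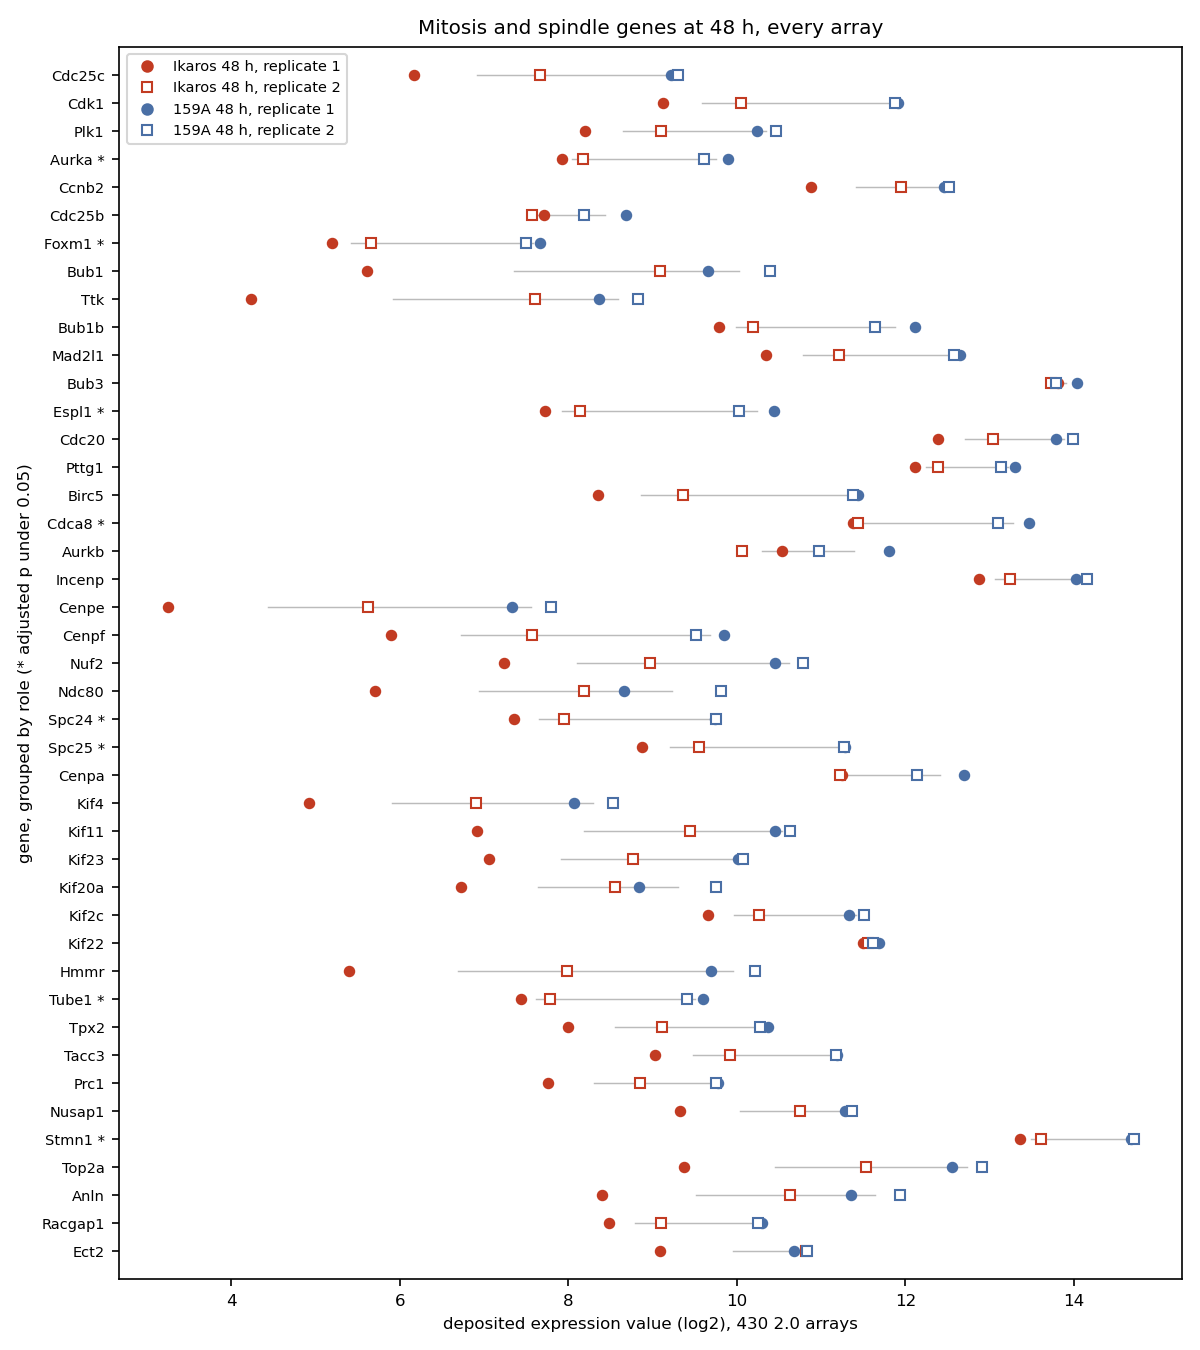
Deposited log2 expression values (horizontal axis) of the 43 mitosis and spindle genes (rows, grouped by role) on each 430 2.0 array at 48 h, with Ikaros cells in red and 159A cells in blue, replicate 1 filled and replicate 2 open. Grey lines join the group means, and asterisks mark the 8 genes with an adjusted p under 0.05. The red points lie left of the blue points in 41 rows, the exceptions being Bub3 and Ect2, and the red points are far apart in rows such as Bub1 and Ttk.

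Among the kinases, cyclins and phosphatases that start mitosis, Aurka fell. Aurka, the kinase that matures spindle poles, read 7.92 and 8.18 in Ikaros cells, against 9.89 and 9.61 in 159A cells. The groups lay well apart, with little spread within either, and the difference was -1.70 ± 0.17 (SE, 3.25-fold lower, adjusted p = 0.0337 in limma). Cdk1 read 9.12 and 10.05 in Ikaros cells, against 11.91 and 11.87 in 159A cells, a difference of -2.31 ± 0.40 (adjusted p = 0.0647). Both Ikaros arrays lay below both 159A arrays for Cdk1, and the 2 Ikaros arrays differed from each other far more than the 159A arrays did. Ccnb2, which encodes cyclin B2, Plk1, a kinase that acts throughout mitosis, and the phosphatase genes Cdc25b and Cdc25c, whose products activate Cdk1, had differences of -0.80 to -2.34 that did not pass the test. Foxm1, which encodes a transcription factor of mitotic genes, read 5.19 and 5.65 in Ikaros cells, against 7.67 and 7.50 in 159A cells. It fell by 2.16 ± 0.21 on the log2 scale (SE, 4.47-fold lower, adjusted p = 0.0337 in limma), with both Ikaros arrays close together and below the others. The other 2 probe sets of Foxm1 with a value more than 1 log2 unit above the lowest value had smaller differences, of -0.74 and -0.68.

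None of the 5 genes of the spindle checkpoint, which delays anaphase until every kinetochore is attached, passed the test. Of all genes tested, 8.47% passed as lower. Bub1b came closest, with 9.79 and 10.19 in Ikaros cells, against 12.11 and 11.64 in 159A cells, a difference of -1.88 ± 0.27 (SE, adjusted p = 0.0503 in limma). Bub1 and Ttk, both checkpoint kinases, had larger differences of -2.67 each and SEs of 1.5 and 1.43. Bub1 read 5.61 and 9.09 in Ikaros cells, against 9.66 and 10.39 in 159A cells. Replicate 2 of the Ikaros cells thus lay near the 159A arrays for Bub1, and replicate 1 far below. Bub3 was set apart from the rest of the checkpoint, with 13.81 and 13.73 in Ikaros cells, against 14.03 and 13.79 in 159A cells, a difference of -0.14 ± 0.12 (adjusted p = 0.52). Its groups overlapped.

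Of the 3 genes of anaphase and mitotic exit, Espl1, the protease that cuts cohesin, fell. It read 7.72 and 8.14 in Ikaros cells, against 10.44 and 10.03 in 159A cells, and the groups lay over 1 log2 unit apart. The difference was -2.31 ± 0.25 (SE, 4.94-fold lower, adjusted p = 0.0368 in limma). Pttg1, the inhibitor of separase, and Cdc20, the activator of the anaphase-promoting complex, had differences of -0.97 and -1.17 (adjusted p = 0.0534 and 0.11).

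The chromosomal passenger complex corrects faulty attachments and guides cytokinesis. All 4 of its genes had both Ikaros arrays below both 159A arrays, against 30.0% of all genes tested. Cdca8, which encodes its subunit borealin, read 11.38 and 11.44 in Ikaros cells, against 13.47 and 13.09 in 159A cells. It had the smallest p of the 43 genes, with a difference of -1.87 ± 0.17 (SE, 3.66-fold lower, adjusted p = 0.0306 in limma). Incenp, the scaffold, read 12.87 and 13.24 in Ikaros cells, against 14.03 and 14.15 in 159A cells, a difference of -1.03 ± 0.17 (adjusted p = 0.063). Birc5, which encodes survivin, had a larger difference of -2.55, and Aurkb, the kinase of the complex, one of -1.10, neither passing the test.

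All 7 genes of the centromere and kinetochore had both Ikaros arrays below both 159A arrays, against 30.0% of all genes tested. Their median difference was -2.29. Spc24, a subunit of the Ndc80 complex that grips microtubules, read 7.35 and 7.95 in Ikaros cells, against 9.73 and 9.75 in 159A cells, and fell by 2.09 ± 0.26 (SE, 4.26-fold lower, adjusted p = 0.0413 in limma). Its partner Spc25 read 8.88 and 9.54 in Ikaros cells, against 11.28 and 11.27 in 159A cells, and fell by 2.06 ± 0.29 (4.18-fold lower, adjusted p = 0.0484). For both subunits the 159A arrays nearly coincided and the Ikaros arrays were far below them. Ndc80 and Nuf2, the other subunits of that complex, had differences of -2.29 and -2.52 with SEs of 1.15 and 0.75, and did not pass the test. Cenpe, a kinetochore motor, read 3.25 and 5.63 in Ikaros cells, against 7.33 and 7.79 in 159A cells, a difference of -3.13 ± 1.03 (adjusted p = 0.169). Cenpf, a large kinetochore protein, read 5.89 and 7.57 in Ikaros cells, against 9.84 and 9.52 in 159A cells, a difference of -2.95 ± 0.73 (adjusted p = 0.109). These 2 genes had the largest differences after Hmmr, and the low first Ikaros replicate made their errors wide. Cenpa, the histone H3 variant of centromeres, had a difference of -1.18.

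None of the 6 spindle motors passed the test, against 8.47% of all genes tested as lower. At least 2-fold lower were 5, against 14.5% of all genes. Kif11, which slides spindle poles apart, Kif4, a motor on chromosome arms, Kif20a and Kif23, motors of the central spindle, and Kif2c, which takes microtubules apart at kinetochores, had differences of -1.46 to -2.39. Kif22, a motor on chromosomes, differed by only -0.13 ± 0.07 on its brightest probe set, with 11.49 and 11.55 in Ikaros cells, against 11.69 and 11.62 in 159A cells. The other 2 probe sets of Kif22, both dimmer, had differences of -1.16 and -1.02, so the small value holds for the brightest probe set only.

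Among the 7 spindle and microtubule proteins, Stmn1 and Tube1 fell. Stmn1, which encodes stathmin, a protein that binds tubulin and takes microtubules apart, read 13.37 and 13.61 in Ikaros cells, against 14.67 and 14.71 in 159A cells, a difference of -1.20 ± 0.12 (SE, 2.3-fold lower, adjusted p = 0.0329 in limma). Tube1, which encodes epsilon-tubulin of the centrosome, read 7.44 and 7.78 in Ikaros cells, against 9.60 and 9.40 in 159A cells, a difference of -1.89 ± 0.17 (3.71-fold lower, adjusted p = 0.0309). In both genes the spread within a group was a small part of the difference. Hmmr, a spindle assembly protein first known as a hyaluronan receptor, had the largest difference of the list. It read 5.39 and 7.98 in Ikaros cells, against 9.69 and 10.22 in 159A cells, a difference of -3.27 ± 1.12 (adjusted p = 0.179). Its Ikaros arrays differed from each other by a large part of that difference. Prc1, which bundles antiparallel microtubules, Tpx2, the activator of Aurka, Nusap1 and Tacc3 had differences of -1.29 to -1.77 and did not pass.

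The remaining genes were Top2a, Anln, Racgap1 and Ect2. Top2a, which encodes the topoisomerase that untangles chromosomes, read 9.38 and 11.54 in Ikaros cells, against 12.55 and 12.91 in 159A cells, a difference of -2.28 ± 0.93 (adjusted p = 0.233 in limma). Anln, the scaffold protein anillin, and Racgap1, a subunit of centralspindlin, had differences of -2.13 and -1.49. Ect2 read 9.08 and 10.82 in Ikaros cells, against 10.68 and 10.83 in 159A cells, a difference of -0.81 ± 0.74 (adjusted p = 0.529). Only Ikaros replicate 1 lay below the 159A arrays for Ect2, and replicate 2 lay between them.

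The 2 Ikaros samples at 48 h stood apart from each other in these genes. Replicate 2 was higher than replicate 1 for 39 of 43 genes, with a median difference of 0.90 log2 units, against -0.09 over all genes tested. In 159A cells, replicate 2 was higher for 22 of 43, with a median of 0.01. Over 1 log2 unit apart were 20 of 43 genes in Ikaros cells and 1 of 43 in 159A cells, against 11.6% and 3.18% of all genes tested. The widest gap was that of Bub1, at 3.48. Aurkb had a gap of -0.48, the lowest value in Ikaros cells. Taken singly, Ikaros replicate 1 was below the 159A mean in 43 of 43 genes with a median of -2.26 and 39 at least 2-fold lower. Ikaros replicate 2 was below it in 42 of 43 with a median of -1.22 and 30 at least 2-fold lower. For each Ikaros array, 15.5% of all genes tested were at least 2-fold below the 159A mean. Of the 8 genes that passed the test, none had Ikaros arrays more than 1 log2 unit apart. A small spread within the groups is part of what the test asks for, so this is no separate result. Mki67 had the same order, with replicate 1 at 7.72 and replicate 2 at 10.17.

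**Figure D3:**
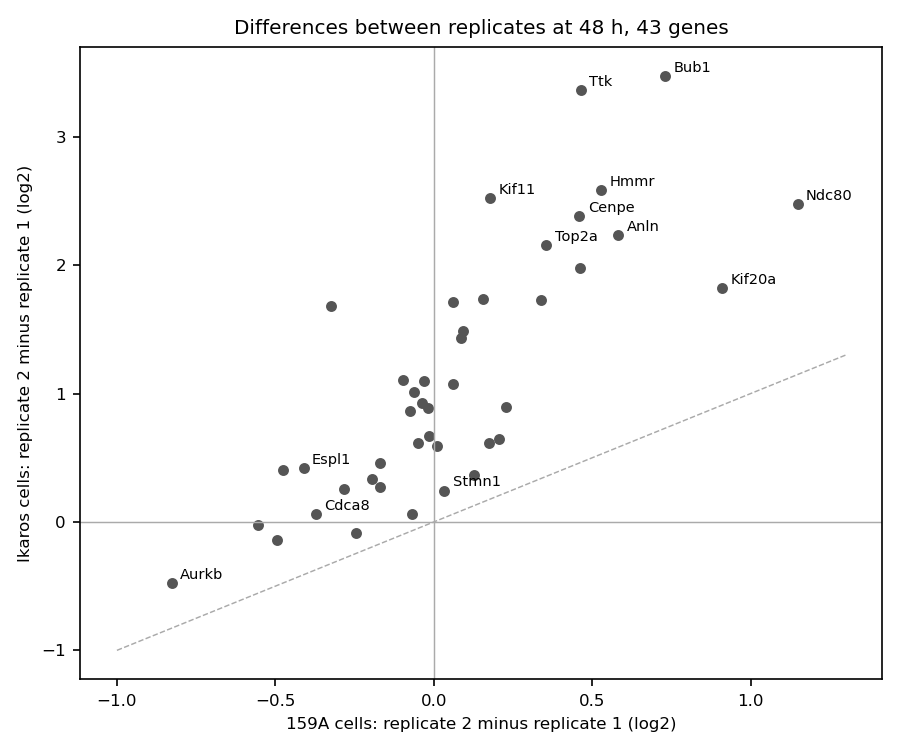
Difference between replicate 2 and replicate 1 (log2) in Ikaros cells (vertical axis) against the same difference in 159A cells (horizontal axis) for the 43 mitosis and spindle genes at 48 h. The dashed line marks equal differences. Most points lie above it, with Bub1 at 3.48, and 39 of 43 lie above 0 in Ikaros cells, against 22 of 43 in 159A cells.

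Leaving out any 1 of the 4 arrays at 48 h left 0 of 43 genes past limma's adjusted threshold, and 0 of all genes tested, in fits that assume that the lone array left in a group varies like the other group. Without Ikaros replicate 1 or 2 the unadjusted p was under 0.05 for 29 or 36 of 43, against 31.3% or 33.6% of all genes. Without 159A replicate 1 or 2 it was so for 8 or 10 of 43 (18.6% or 23.3%), near the 19.8% or 20.1% of all genes. Other probe sets of the same genes were read too. The 43 genes had 101 probe sets on 430 2.0, of which 85 reached more than 1 log2 unit above the lowest value on the array type. Of those 85, 83 had a negative difference, and the exceptions were 1 of Bub1b, at 0.18, and 1 of Bub3, at 0.09. The 42 that had not been chosen to stand for their gene had a median difference of -1.50. The 3 probe sets of Kif11 ranged from -2.36 to -4.29. Over the 43 genes, Spearman's rho between the level in 159A cells and the difference at 48 h was 0.50, as genes with lower levels had larger differences. These points share the arrays and the 159A values enter both measures.

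Other mitotic genes from a list of 103, of which 101 were tested at 48 h, had a median difference of -1.37. Of these, 16 (15.8%) fell and 2 (1.98%) rose, against 8.47% and 6.38% of all genes tested. Non-overlapping arrays in the lower direction were found for 73 (72.3%), against 30.0% of all genes, and 57 (56.4%) were at least 2-fold lower, against 14.5%. Mybl2, which encodes B-Myb, read 3.74 and 4.93 in Ikaros cells, against 9.31 and 9.11 in 159A cells, a difference of -4.88 ± 0.51 (SE, 29.4-fold lower, adjusted p = 0.0348 in limma). Melk, a mitotic kinase gene, read 7.05 and 7.43 in Ikaros cells, against 10.85 and 10.74 in 159A cells, a difference of -3.55 ± 0.17 (adjusted p = 0.0201). For both genes the Ikaros arrays lay several log2 units below the 159A arrays. Cdca5, which encodes the cohesin protector sororin, and Fbxo5, an inhibitor of the anaphase-promoting complex, fell, with log2 differences of -2.19 and -2.18. The 16 genes of the anaphase-promoting complex and its regulators had a smaller median difference of -0.28, with 2 that fell, Anapc5 and Fbxo5. The 26 other kinetochore genes had a median of -1.78, and the 14 of condensin and cohesin -1.57. The 2 genes that rose were Haus2, a subunit of the augmin complex, and Cdc14a, a phosphatase. Haus2 read 10.05 and 10.08 in Ikaros cells, against 8.88 and 9.05 in 159A cells. Its fellow subunit gene Haus1 fell by 1.27 ± 0.07 on the log2 scale, with 9.22 and 9.33 in Ikaros cells, against 10.54 and 10.55 in 159A cells.

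After 2 h and 6 h of 4-hydroxytamoxifen, the same genes lay slightly above the vector-ERt2 cells. At 2 h, 39 of 43 genes had a positive difference, with a median of 0.13 log2 units, against -0.0071 over all 11963 genes tested. At 6 h, 39 of 43 were positive, with a median of 0.13, against -0.00016. At 2 h, 2 of 43 rose at an adjusted p under 0.05 in limma (4.65%), against 0.769% of all genes tested. At 6 h, 5 of 43 rose (11.6%), against 2.58% of all genes tested. None of the 43 fell at either time. The arrays of 18 of 43 at 2 h lay above all vector arrays, against 9.23% of all genes, and of 22 of 43 at 6 h, against 11.0%. No gene of the list had all arrays below the vector arrays. Both comparisons use the same 3 vector arrays, so their counts are not independent of each other.

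Ect2 had the largest difference at 6 h. It read 9.43, 9.20 and 9.35 in Ikaros-ERt2 cells at 2 h and 9.52, 9.38 and 9.47 at 6 h, against 8.89, 8.92 and 9.02 in vector-ERt2 cells. All 6 Ikaros-ERt2 arrays lay above all vector arrays. Ect2 rose by 0.38 ± 0.08 at 2 h (SE, adjusted p = 0.0365 in limma) and by 0.51 ± 0.08 at 6 h (1.43-fold, adjusted p = 0.00324). Anln and Racgap1, the other genes of cytokinesis, had differences of -0.04 and 0.12 at 6 h and did not pass the test.

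Stmn1 was the other gene to pass at both times. It read 10.72, 10.40 and 10.54 in Ikaros-ERt2 cells at 2 h and 10.44, 10.49 and 10.33 at 6 h, against 9.97, 10.11 and 10.07 in vector-ERt2 cells. The groups did not overlap, and the 2 h arrays were the more spread. Stmn1 rose by 0.51 ± 0.09 at 2 h (SE, adjusted p = 0.0172 in limma) and by 0.37 ± 0.09 at 6 h (1.29-fold, adjusted p = 0.0341). A second Gene 1.0 ST probe set of Stmn1 had nearly the same value on every array, so the pair cannot count as separate measurements.

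Prc1, Kif2c and Tube1 passed at 6 h and not at 2 h, and none of them changed between 2 h and 6 h by limma's test. Prc1 read 9.03, 8.83 and 9.04 in Ikaros-ERt2 cells at 2 h and 9.08, 9.11 and 8.92 at 6 h, against 8.78, 8.68 and 8.49 in vector-ERt2 cells. All Ikaros-ERt2 arrays were above the vector arrays, and Prc1 rose by 0.39 ± 0.10 at 6 h (SE, adjusted p = 0.0383), with 0.32 ± 0.10 at 2 h (adjusted p = 0.142). Kif2c read 8.96 on all 3 Ikaros-ERt2 arrays at 2 h and 9.08, 9.09 and 9.08 at 6 h, against 8.82, 8.69 and 8.80 in vector-ERt2 cells. Such identical readings of Kif2c at 2 h make the spread of that group smaller than that of most genes. Kif2c rose by 0.31 ± 0.06 at 6 h (SE, adjusted p = 0.0152 in limma). Tube1 read 7.90, 7.80 and 7.77 in Ikaros-ERt2 cells at 2 h and 8.15, 8.04 and 8.12 at 6 h, against 7.82, 7.88 and 7.76 in vector-ERt2 cells. Only its 6 h arrays lay above the vector arrays, and Tube1 rose by 0.28 ± 0.07 at 6 h (adjusted p = 0.0381), with 0.01 ± 0.07 at 2 h.

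**Figure D4:**
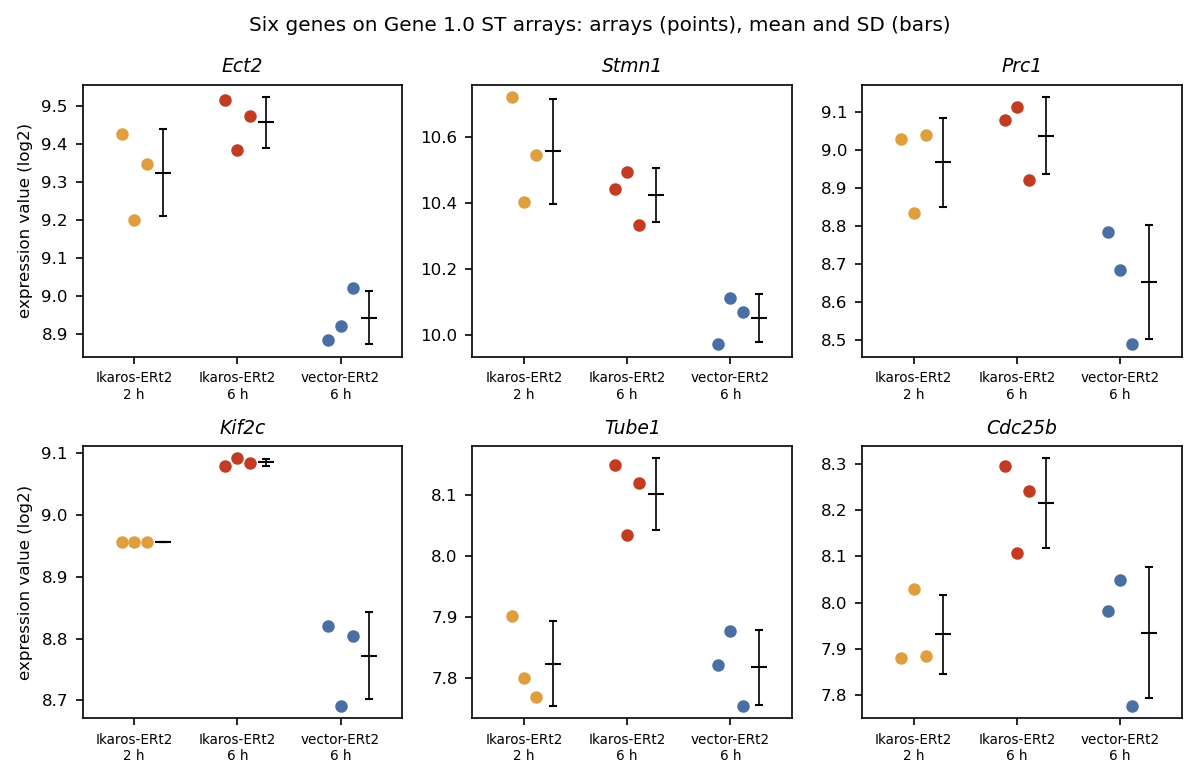
Deposited log2 expression values (vertical axis, a separate range in each panel) of 6 mitosis and spindle genes on the 9 Gene 1.0 ST arrays, in Ikaros-ERt2 cells at 2 h (orange) and 6 h (red) and in vector-ERt2 cells at 6 h (blue). Points are arrays, and black bars give the mean and SD of 3 arrays. Ect2, Stmn1, Prc1 and Kif2c lie above the vector arrays at both times, and Tube1 and Cdc25b at 6 h only.

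By role, the 7 spindle and microtubule proteins had a median of 0.28 at 6 h, with 3 that rose and 6 whose arrays lay above the vector arrays. Of all genes tested at 6 h, 2.58% rose and 11.0% had arrays wholly above the vector arrays. The 6 entry kinases, cyclins and phosphatases had a median of 0.28 with none past the test, and the 6 motors a median of 0.24 with 1 past it. The 5 checkpoint genes had a median of 0.10 and the 3 genes of anaphase and exit 0.07, with no gene past the test and none with non-overlapping arrays. Among the genes that fell at 48 h, Foxm1, Espl1, Aurka and Cdca8 had differences of 0.12, 0.01, 0.06 and 0.10 at 6 h; none of these passed the test. Mki67 read 10.78, 10.65 and 10.78 in Ikaros-ERt2 cells at 6 h, against 10.63, 10.33 and 10.46 in vector-ERt2 cells, a difference of 0.26 ± 0.09 (SE, adjusted p = 0.138 in limma). Of the 100 other mitotic genes tested, 0 passed the test at 2 h, against 0.769% of all genes tested as higher and 1.1% as lower. At 2 h, 15 had an unadjusted p under 0.05, near the 14.1% of all genes tested. A positive difference at 2 h was found for 70 of the 100, against 47.2% of all genes. Arrays lay wholly above the vector arrays for 16, against 9.23%, and wholly below for 2, against 9.40%. At 6 h, 1 of the 100 passed, against 2.58% of all genes tested as higher and 3.20% as lower. That gene was Dlgap5, a spindle protein gene, which rose by 0.28 ± 0.07 (adjusted p = 0.0416 in limma). At 6 h, 21 of the 100 had an unadjusted p under 0.05, against 17.8% of all genes tested, and the median over the 100 was 0.09. A positive difference at 6 h was found for 77 of the 100, against 49.9% of all genes. Arrays lay wholly above the vector arrays for 28, against 11.0%, and wholly below for 5, against 10.3%.

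The counts of these small differences depended on single arrays. Vector-ERt2 replicate 2 was the lowest array for the list, with a median deviation of -0.16 from each gene's mean over the 9 arrays and 41 of 43 genes below that mean, against -0.06 for both other vector arrays. Without vector replicate 2, 0 of 43 genes passed limma's adjusted threshold at 2 h. There, 6 of 43 (14.0%) had an unadjusted p under 0.05, against 11.0% of all genes. At 6 h, without the same array, 1 of 43 passed, against 144 of 11963 genes as higher, and the median was 0.12. At 2 h, 0 of 43 also passed without vector replicate 1 or 3 or without Ikaros-ERt2 2 h replicate 1, with 12, 11 and 7 of 43 at an unadjusted p under 0.05, against 11.99%, 10.5% and 9.64% of all genes. Without Ikaros-ERt2 2 h replicate 3 or Ikaros-ERt2 6 h replicate 1, 1 of 43 passed at 2 h, against 57 or 65 of 11963 genes as higher. At 6 h, 1 of 43 passed without Ikaros-ERt2 6 h replicate 1, against 125 of 11963 genes as higher. Without vector replicate 1 or 3, 2 of 43 passed, against 128 or 173 genes. Without Ikaros-ERt2 6 h replicate 2 or Ikaros-ERt2 2 h replicate 1 or 3, 3 of 43 passed, against 193, 235 or 273 genes. Ect2 passed at 6 h in all 9 fits that left out 1 array and Kif2c in 7 of 9, while Prc1 passed in 2 and Stmn1 and Tube1 in 3.

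Between 6 h and 2 h of exposure in Ikaros-ERt2 cells, 0 of 43 genes passed limma's adjusted threshold, against 0.903% of all genes tested in either direction, and 2 of 43 had an unadjusted p under 0.05, against 13.6% of all genes. The median difference was 0.05. Those 2 were Tube1, at 0.28 ± 0.07 (SE, adjusted p = 0.102), and Cdc25b, at 0.28 ± 0.09 (adjusted p = 0.174). Cdc25b read 8.30, 8.11 and 8.24 at 6 h, against 7.88, 8.03 and 7.88 at 2 h, and 7.98, 8.05 and 7.78 in vector-ERt2 cells. Its 6 h arrays lay above both other groups. Spc25 read 8.65, 8.91 and 8.75 at 6 h, against 8.64 on all 3 arrays at 2 h. The readings of Spc25 at 2 h were identical, at 8.63525 with an SD of 0, and vector-ERt2 replicate 3 had the same value. Why they repeat is not known, so the lack of overlap for Spc25 is to be read with care. In this comparison 13 of 43 genes had a negative difference. All 6 h arrays lay above all 2 h arrays for 5 of 43 (11.6%), against 7.90% of all genes tested. They lay below for 3 of 43 (6.98%), near the 6.91% of all genes tested. Those 3 were Cdk1 with -0.15, Incenp with -0.11 and Bub3 with -0.10, and none of them passed the test. Cdk1 read 9.72, 9.81 and 9.76 at 6 h, against 10.01, 9.86 and 9.86 at 2 h. Incenp read 9.97, 9.99 and 9.85 at 6 h, against 10.04, 10.00 and 10.10 at 2 h, and Bub3 read 10.28, 10.29 and 10.15, against 10.36, 10.34 and 10.30. In all 3 genes the gap between the 6 h and the 2 h arrays was smaller than the SD of either group. For Incenp the highest 6 h array read 9.99496 and the lowest 2 h array 9.99512, so they nearly met. For Bub3 these arrays read 10.2872 and 10.2961.

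The comparisons at 6 h and at 48 h share no arrays, and use different array types, constructs and controls. For 39 of 43 genes the difference was positive at 6 h and negative at 48 h, against 19.7% of the 9246 genes tested on both types. Arrays lay wholly above the vector arrays at 6 h and wholly below the 159A arrays at 48 h for 21 of 43, against 2.52% of genes. Stmn1 and Tube1 passed the test in both, higher at 6 h and lower at 48 h. At 6 h each passed in 3 of 9 fits that left out 1 array, and neither with the replicate number in the fit. At 48 h neither passed with the replicate number in the fit or with the mean of all probe sets of a gene. Stmn1 had differences of 0.37 at 6 h and -1.20 at 48 h, and Tube1 of 0.28 and -1.89. Ect2, with the largest difference at 6 h, had one of the smaller differences at 48 h and overlapping arrays there. Hmmr, Cenpe and Cenpf, with the largest differences at 48 h, had differences of 0.25, 0.18 and 0.32 at 6 h and did not pass. Across the 43 genes, Spearman's rho between the differences at 6 h and at 48 h was 0.12, so the order of the genes at one time told little of their order at the other. No test of the difference between the 2 experiments was made, as the 2 array types were deposited as separate tables.

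**Figure D5:**
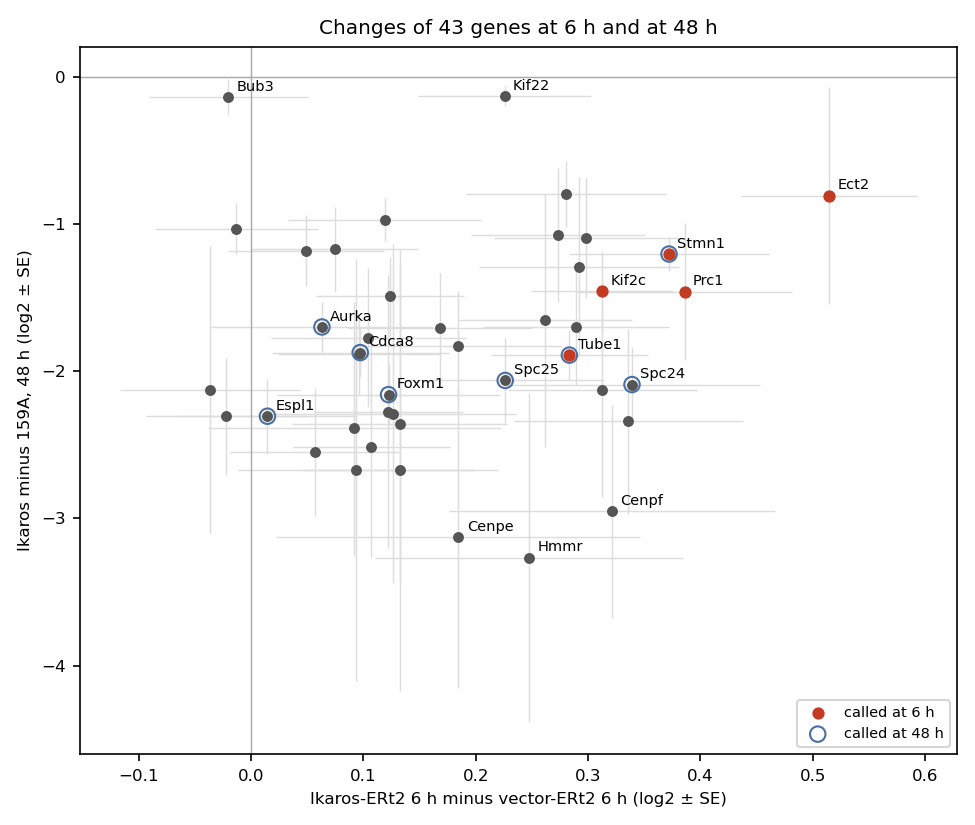
Log2 difference at 48 h (Ikaros minus 159A, vertical axis) against log2 difference at 6 h (Ikaros-ERt2 minus vector-ERt2, horizontal axis) for the 43 mitosis and spindle genes, with standard errors as grey lines. Red points passed the test at 6 h (5 genes) and blue rings at 48 h (8 genes). All points lie below 0 at 48 h and 39 lie to the right of 0 at 6 h, and Stmn1 and Tube1 carry both marks.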

How the data were processed

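RNA of B3 cells was measured on 4 Mouse Genome 430 2.0 and 9 Gene 1.0 ST arrays. The authors deposited log2 values, in a separate table for each type. GCRMA, RMA, affy and limma are named, per the submitters' processing notes, without versions or the type each served. On 430 2.0, 36.7% of values were at most 0.01 above the lowest. No level was compared across types.

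Groups came from the sample titles, and gene names from the platform annotation, for probe sets with 1 symbol. All genes tested entered limma 3.58.1 (R 4.3.3, lmFit with eBayes, two-sided, Benjamini-Hochberg). The fit was also run on simulated data with independent normal noise for each gene. Those data held no pairing, floor or array effect shared by genes, so they cannot show how such features affect the calls. Errors after a log2 difference are its standard errors. Same-numbered Ikaros-ERt2 2 h and vector-ERt2 arrays deviated together (r 0.119 to 0.235 for the 3 pairs), so these numbers may pair the arrays, by the data and not the labels. The main fits did not use the replicate numbers, and a fit with them as a block is given at the end. Alternatives changed the filter, scaling, probe set choice, block, weights and arrays. Values in every array are given for genes past the adjusted threshold of 0.05, for the 3 largest non-overlapping changes per direction and comparison, and for Bub1, Bub1b, Kif22 and Top2a, chosen after their values were seen. From the other lists, up to 2 genes with the smallest p were named, and Mki67. Printed promoters were limited to bases before the start after the matches were seen. The members and lists were chosen with earlier results of these data known.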

Additional observations from a re-analysis of the deposited data

Results flagged for a closer look

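For 21 of the 43 genes, all Ikaros-ERt2 arrays at 6 h lay above all vector-ERt2 arrays while both Ikaros arrays at 48 h lay below both 159A arrays on the other array type. Of the 21, 4 passed the test at 6 h (Kif2c, Prc1, Stmn1 and Tube1), 4 at 48 h (Spc24, Spc25, Stmn1 and Tube1) and 2 in both. For the others the arrays only lay apart. Values are log2 differences. Among genes that start mitosis, Ccnb2 had 0.27 at 6 h and -1.08 at 48 h, Plk1 had 0.29 at 6 h and -1.70 at 48 h, Cdc25b had 0.28 at 6 h and -0.80 at 48 h and Cdc25c had 0.34 at 6 h and -2.34 at 48 h. Of the passenger complex and the kinetochore, Aurkb had 0.30 at 6 h and -1.10 at 48 h, Cenpf had 0.32 at 6 h and -2.95 at 48 h, Spc24 had 0.34 at 6 h and -2.09 at 48 h and Spc25 had 0.23 at 6 h and -2.06 at 48 h. Among motors, Kif11 had 0.13 at 6 h and -2.36 at 48 h, Kif20a had 0.26 at 6 h and -1.65 at 48 h and Kif23 had 0.31 at 6 h and -2.13 at 48 h. Kif2c had 0.31 at 6 h and -1.46 at 48 h and Kif22 had 0.23 at 6 h and -0.13 at 48 h. Among spindle proteins, Prc1 had 0.39 at 6 h and -1.46 at 48 h, Nusap1 had 0.29 at 6 h and -1.29 at 48 h, Stmn1 had 0.37 at 6 h and -1.20 at 48 h and Tacc3 had 0.17 at 6 h and -1.71 at 48 h. Hmmr had 0.25 at 6 h and -3.27 at 48 h and Tube1 had 0.28 at 6 h and -1.89 at 48 h. Of the rest, Top2a had 0.12 at 6 h and -2.28 at 48 h and Racgap1 had 0.12 at 6 h and -1.49 at 48 h. The difference between the experiments was not tested, and the array type, the construct, the control and the time all differ between them.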

How the results depend on the processing

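The 2 h, 6 h and 48 h medians kept their signs under every alternative run, and no gene that passed a test changed sign. The number of arrays limits what can be called, above all at 48 h, and a p that misses the threshold does not show that values did not differ. Without a filter on low genes, the genes called at 2 h, 6 h over 2 h and 48 h numbered 141, 59 and 185, in place of 223, 108 and 1621, and the members called 1 at 2 h, 3 at 6 h and 0 at 48 h (19 with an unadjusted p under 0.05), in place of 2, 5 and 8. Without that filter, 52 of 19938 genes at 2 h and 222 at 6 h were called higher. With the lowest 60% left out, 23 of 41 members tested fell at 48 h, against 980 of 7278 genes. Quantile normalization gave 12 members at 6 h, against 418 of 11963 genes as higher. Centring each array gave 15 members at 48 h, against 1116 of 10916 genes as lower, and 61 genes for 6 h over 2 h. The mean of all probe sets of a gene gave 7 members at 48 h, against 961 of 10916 genes as lower. Foxm1, Spc25, Stmn1 and Tube1 were not among the 7. Array weights gave 1155, 2570 and 2060 genes at 2 h, 6 h and 6 h over 2 h. With them 9 and 21 members were higher at 2 h and 6 h, against 593 and 1397 of 11963 genes. For 6 h over 2 h, 3 members were higher and 2 lower, against 1006 and 1054 genes. With only the 2 groups compared, 1 member passed at 2 h and 3 at 6 h, against 82 and 194 of 11963 genes as higher. For 6 h over 2 h, 0 genes passed (1301 with an unadjusted p under 0.05).

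Same-numbered arrays deviated together for 2 h and vector arrays, but not for 6 h and vector arrays (r -0.096 to 0.106) or 6 h and 2 h arrays (-0.258 to 0.244). On 430 2.0 r was 0.572 for same numbers and -0.572 for different ones. With 2 arrays a group these are a single value with opposite signs, and not separate pairs. With the replicate block, Ect2 and Stmn1 still passed at 2 h, so the pairing changed no member's call there. At 6 h 3 members passed (Ect2, Kif2c and Prc1), against 298 of 11963 genes as higher. Stmn1 and Tube1 then had adjusted p = 0.0583 and 0.0617 in limma. For 6 h over 2 h 0 members passed. At 48 h 0 members and 0 of all genes passed, while 25 members and 4493 genes had an unadjusted p under 0.05.

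Leaving out 1 array gave 82 to 269 genes at 2 h with 0 to 2 members, 335 to 714 at 6 h with 1 to 7 members, and 9 to 149 for 6 h over 2 h with 0 members. At 48 h it gave 0 to 0 genes and 0 members (2165 to 3668 genes with an unadjusted p under 0.05). The members' median was 0.10 to 0.15 at 2 h, 0.11 to 0.21 at 6 h, -0.011 to 0.082 for 6 h over 2 h and -2.26 to -1.22 at 48 h. The causes of these shifts were not tested.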
